A study of Mus musculus with 24 samples.

Results

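Rbm25 (ENSMUSG00000010608.15) encodes an RNA-binding protein of the spliceosome, and it was followed here as 1 gene of the 48985 in the deposited count table, allele by allele, in all 24 libraries. In i12 clone 10, a recombined mouse embryonic stem cell clone, the 129S1 allele of Rbm25 was read 31 and 18 times in the 2 replicates, against 475 and 420 times in the parental line. The CAST allele was read 1352 and 717 times in the clone, against 677 and 597 times in the parental line. These counts are not scaled to depth: the clone libraries totalled 6920899 and 4184703 counts, the parental libraries 4123671 and 3829089. After scaling, the mean CAST level in the clone was 116.8% of the parental mean. Rbm25 was selected on the 129S1, CAST and summed counts of this contrast, so its values there are given as a description without a test, and tests are kept for the other clones, the parental lines, the neighbouring genes and the genes that work with Rbm25.

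The cells were the female F1 hybrid line F121/9 (129/Sv crossed with CAST/EiJ), grown in serum-free 2i+LIF medium, which holds embryonic stem cells in the naive state through a MEK inhibitor, a GSK-3β inhibitor and leukemia inhibitory factor. A read over a position where the strains differ can be assigned to the 129S1 or the CAST chromosome, so every gene has 2 allele counts per library. There were 12 groups of 2 replicates: a parental line with genotype control for each of the recombinations d3, d6, i7, i10 and i12, and the recombined clones d3 clone 12, d3 clone 21, d6 clone 16, i7 clone 7, i7 clone 12, i10 clone 18 and i12 clone 10. What the recombination names stand for, and where each recombination lies relative to Rbm25, is not given in the sources used here. Each recombined group is a single clone, so what the recombination did and what else sets that clone apart from its parental line cannot be told apart. The series describes the replicates as biological duplicates without saying what separated them, and the p-values below measure the spread between such libraries.

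RBM25 carries an RNA recognition motif at its N-terminus, a long central stretch rich in arginine, glutamate and aspartate, and a PWI domain at its C-terminus. It binds exonic RNA, contacts the U1 small nuclear ribonucleoprotein (snRNP) that recognises 5′ splice sites through the LUC7-like protein encoded by Luc7l3, and associates with the splicing coactivators encoded by Srrm1 and Srrm2. It is best known for shifting the splicing of Bcl-x (Bcl2l1) towards the short isoform that promotes cell death.

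The gene lies on the plus strand of chromosome 12 between 83631236 and 83683123 (GRCm38) and has 7 protein-coding transcripts in GENCODE M21. The longest coding transcript has 19 exons and 2514 coding bases. To show the arginine and glutamate repeats that mark the protein, the 40 codons richest in these residues are printed here, from coding base 919 to 1038 within exon 10 (chr12:83664033-83664152, plus strand, reference sequence, GENCODE M21), with the arginine codons in capitals.
Rbm25: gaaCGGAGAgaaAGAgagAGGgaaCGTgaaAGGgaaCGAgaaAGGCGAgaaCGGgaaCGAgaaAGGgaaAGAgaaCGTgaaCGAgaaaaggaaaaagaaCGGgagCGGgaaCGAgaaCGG
Of these 40 codons, 19 code for arginine and 19 for glutamate. Over the whole Rbm25 coding sequence, 37.5% of codons code for arginine, glutamate or aspartate, against a median of 16.9% over 21864 mouse coding sequences, of which 31 have a higher share.

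The library totals ran from 3286819 to 15581094 allele-assigned counts, and the 4 i12 libraries held 3829089 to 6920899. The 129S1 share of all counts outside the mitochondrial genes was 47.9 to 49.1% in every library. No 2 libraries agreed within sampling noise: chi-square divided by its degrees of freedom was 2.53 over genes for the closest pair and 9.77 to 54.8 for replicates of a group. The closest pair thus came from different groups. The naive stem cell markers (Pou5f1, Sox2, Nanog, Esrrb, Klf4, Klf2, Zfp42, Tfcp2l1, Tbx3 and Dppa3) were all above 3 counts in the 4 i12 libraries, and their summed level was 6485.5 and 7273.5 CPM (counts scaled to 1000000 per library) in the i12 parental line and 6899.8 and 7313.5 CPM in clone 10. Of the 2-cell-like markers, Zscan4c, Zscan4d and Usp17la were at 0 in these 4 libraries, as was 1 of 5 fibroblast markers, Postn. Summed levels in the parental line and clone 10 were 29.3 to 107.6 and 51.6 to 154.8 CPM for the formative list. They were 12.5 to 25.5 and 20.8 to 31.0 CPM for mesendoderm and 8.16 to 14.5 and 11.6 to 12.1 CPM for fibroblast. For primitive endoderm they were 3.33 to 8.16 and 1.02 to 3.54 CPM. No marker of the 6 lists (naive, formative, primitive endoderm, mesendoderm, 2-cell-like, fibroblast) was called for summed counts in clone 10. Called means an adjusted p under 0.05 in edgeR's quasi-likelihood test. Of all 16253 tested genes, 0.0% were called there.

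On the 129S1 chromosome, Rbm25 measured 113.0 and 107.1 CPM in the i12 parental replicates and 4.51 and 4.24 CPM in the clone 10 replicates, where CPM are relative to the library's summed counts of both alleles after scaling by the trimmed mean of M-values (TMM). The group means were 110.1 ± 4.2 CPM (SD, n = 2) and 4.38 ± 0.19 CPM (SD, n = 2), a 25.1-fold lower level and a log2 change of -4.65. Over the 4 ways of setting a clone library against a parental library the fold lay between 23.7 and 26.6. The clone replicates were alike, and both were far below the lowest of the other 22 libraries, at 83.8 CPM. The counted level did not reach 0: the 129S1 share of Rbm25 counts was 2.24% in replicate 1 (95% Wilson interval 1.58 to 3.16%) and 2.45% in replicate 2 (1.55 to 3.84%). These intervals cover counting error only, not reads assigned to the wrong allele. Whether the remaining 129S1 counts were such reads was not tested. In RNA from whole cultures, a lower level in every cell and an absent level in most cells cannot be told apart, nor can less transcription and a lost gene copy.

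**Figure D1:**
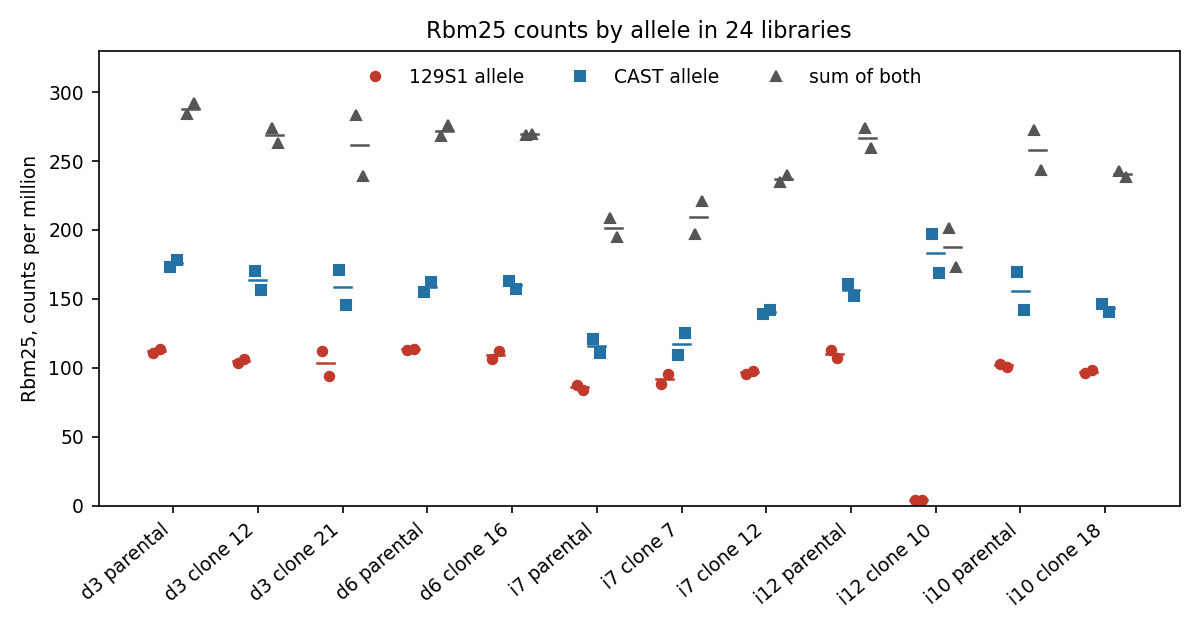
Rbm25 in CPM (y axis) from the 129S1 allele (circles), the CAST allele (squares) and both together (triangles) in the 12 groups (x axis), with 1 point per library and a short line at each group mean. The 129S1 points of i12 clone 10 sit at 4.51 and 4.24 CPM, while those of all other libraries lie between 83.8 and 113.8 CPM.

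The CAST allele of Rbm25 measured 161.1 and 152.2 CPM in the i12 parental line and 196.8 and 169.1 CPM in clone 10. The means were 156.7 ± 6.3 CPM (SD, n = 2) and 183.0 ± 19.6 CPM (SD, n = 2), a log2 change of 0.22. In the 6 other clones, 0 of them called, the CAST change ran from -0.15 to 0.28. The value of clone replicate 1 was the highest CAST value of the 24 libraries, whereas 5 of the other 22 libraries were above that of clone replicate 2. The CAST gain of 26.3 CPM amounted to 24.9% of the 105.7 CPM that the 129S1 allele lost. That percentage was imprecise, ranging from 7.32 to 43.5% over the 4 library pairs.

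Both alleles together gave 274.2 and 259.3 CPM in the parental replicates and 201.3 and 173.3 CPM in the clone replicates. The means were 266.8 ± 10.5 CPM (SD, n = 2) and 187.3 ± 19.8 CPM (SD, n = 2), a log2 change of -0.51, so the clone held 70.2% of the parental Rbm25 level (63.2 to 77.6% over library pairs). The CAST allele alone had supplied 58.7% of the parental level. Across the series, clone 10 had the lowest group mean. Replicate 2 was below all other 22 libraries, whereas 2 of them, i7 parental replicate 2 at 194.6 CPM and i7 clone 7 replicate 1 at 197.2 CPM, were below replicate 1.

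The allelic share set i12 clone 10 apart more sharply than the summed level did. In the i12 parental replicates 41.2% and 41.3% of Rbm25 counts came from the 129S1 allele. Over the 22 libraries outside clone 10, the lowest share was 37.7%, the median 41.0% and the highest 44.7%. Rbm25 was thus read somewhat more often from CAST in all 22, including both replicates of all 5 parental lines, whose shares ran from 37.8 to 43.0%.

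**Figure D2:**
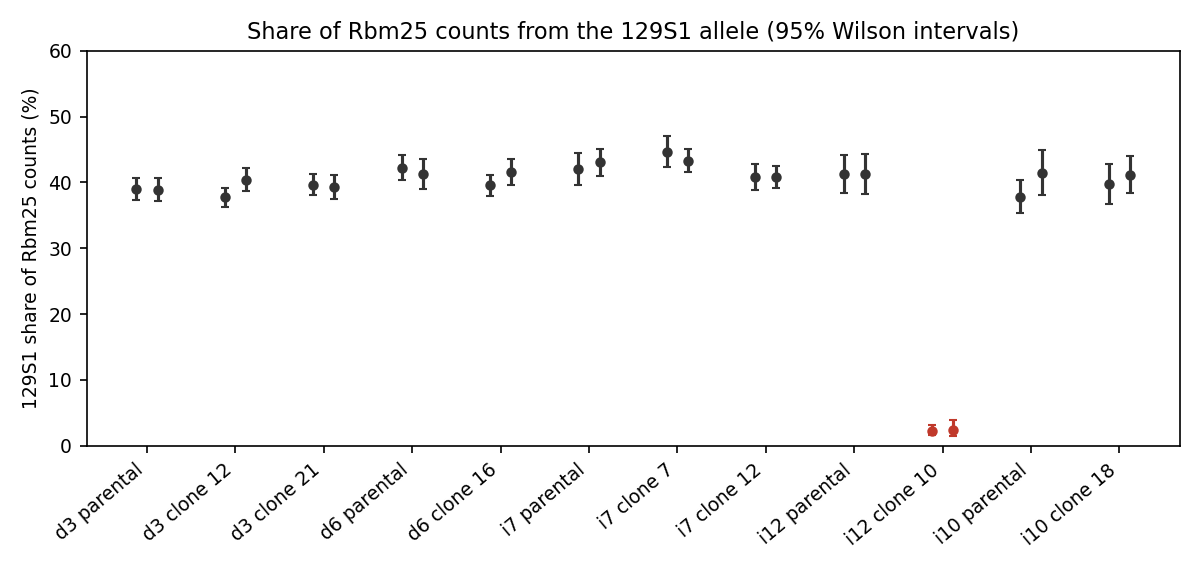
Percentage of Rbm25 counts from the 129S1 allele (y axis) in each library of the 12 groups (x axis), with 95% Wilson intervals that cover counting error only. The 2 libraries of i12 clone 10 lie at 2.24 and 2.45%, and the other 22 lie between 37.7 and 44.7%.

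Among all genes, the log2 change of the 129S1 to CAST ratio of Rbm25 in i12 clone 10, -4.87 from the library values, was the lowest of the 6388 genes averaging 100 or more counts from each allele. The next lowest in that set was AC125059.1 at -1.88, named after its value was seen, and the highest change was 1.70. Over all 10795 genes tested for the ratio, Rbm25 ranked 4 from the lowest, behind genes with few counts. Since Rbm25 was chosen on its counts in this contrast, these ranks are a description only. Near-complete loss of an allele was defined as a share under 10% in both clone libraries for a gene at 20 to 80% in both parental libraries. This was met by 2 of 9535 genes in i12 clone 10 (0.021%), Rbm25 and the antisense gene Gm29361 inside it, both on the 129S1 side. Genes also met it in every other clone, of 9532 to 9695 assessed. On the 129S1 and CAST sides, d3 clone 12 had 0 and 4 such genes, all on chromosome 9. In d3 clone 21 the numbers were 285 and 6, with 284 of these genes on chromosome 14. The numbers were 0 and 4 in d6 clone 16, all on chromosome 9, and 0 and 2 in i7 clone 7. They were 1 and 2 in i7 clone 12 and 2 and 0 in i10 clone 18.

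**Figure D3:**
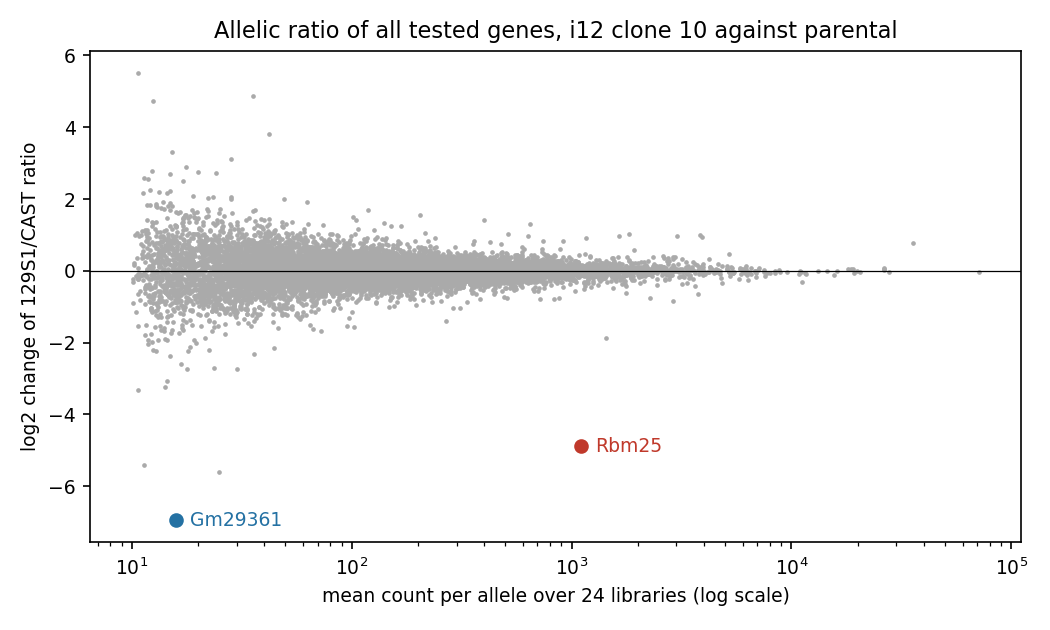
Log2 change of the 129S1 to CAST ratio in i12 clone 10 against its parental line (y axis) for the 10795 tested genes (grey points), against the mean count per allele over the 24 libraries (x axis, log scale). Rbm25 (red), the gene chosen on this contrast, stands alone among genes of its abundance. Gm29361 (blue) lies among genes with few counts, where the fitted value depends on the prior count.

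The loss was not seen in the other 6 recombined clones, where Rbm25 could be tested. The log2 change of the ratio against the parental line was 0.0067 for clone 12 and 0.03 for clone 21 of d3, and -0.07 for d6 clone 16. It was 0.08 for clone 7 and -0.10 for clone 12 of i7, and 0.06 for i10 clone 18, with SEs from 0.098 to 0.11. Rbm25 was called in 0 of the 6 by edgeR (quasi-likelihood test, Benjamini-Hochberg adjusted p under 0.05). Of all genes, 0.0463, 3.41, 0.0463, 0.00926, 2.33 and 0.0% were called for the ratio in the clones as listed. The lowest bound of the 6 intervals (2 SEs either side) was -0.30, in i7 clone 12. The 129S1 counts of Rbm25 changed by -0.12 to 0.17 (log2) over these clones and the CAST counts by -0.15 to 0.28. Neither allele was called in any of the 6, where 2.61% of all genes were called for 129S1 counts in d3 clone 21 and 0.0% in the 5 others. For CAST counts 0.043% of genes were called in clone 12 and 0.616% in clone 21 of d3, 0.0358% in d6 clone 16, 0.423% in i7 clone 12 and 0.0% in i7 clone 7 and i10 clone 18.

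Summed Rbm25 counts did not change detectably in those 6 clones either. The log2 changes ran from -0.14 ± 0.14 (SE) in d3 clone 21 to 0.23 ± 0.14 (SE) in i7 clone 12, and 0 of 6 were called. For d3, the same test called 0.0123% of all genes in clone 12 and 0.0554% in clone 21. It called 0.0123% in d6 clone 16, 0.0246% in i7 clone 12, and 0.0% in i7 clone 7 and i10 clone 18. The smallest unadjusted p of the 6, for i7 clone 12, was 0.104 in edgeR's quasi-likelihood test. The test of whether the 6 changes differed among themselves gave an edgeR adjusted p of 1.0 for the summed counts (0.0615% of genes called) and of 1.0 for the ratio (5.18% called). An interval such as that of d3 clone 21 (-0.41 to 0.13) would still hold a modest decrease.

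Between the unrecombined lines, Rbm25 was lowest in the i7 background. The d3 parental replicates measured 284.3 and 291.9 CPM for both alleles, and the i7 parental replicates 208.9 and 194.6 CPM, with no overlap. The difference was 0.51 ± 0.14 (log2, SE) with an adjusted p of 0.0467 by edgeR's quasi-likelihood test, in a comparison in which 3.73% of all genes were called. It was the 1 call among the 10 pairs of parental lines for summed counts. The share of all genes called was 1.82% for d3 against d6, 3.35% for d3 against i10, 4.96% for d3 against i12, 0.172% for d6 against i12, 1.13% for d6 against i7, 1.13% for i7 against i10, 2.2% for i7 against i12, and 0.0% for the other pairs. The call was narrow: it was lost without d3 parental replicate 2 and without either i7 parental replicate, and also without the filter on low counts (0 of 10 pairs called each time). The CAST counts gave a call in the same pair (0.60 ± 0.15, SE, adjusted p = 0.0463 in edgeR, 2.52% of genes called), and the 129S1 counts differed by 0.39 ± 0.14 (SE, adjusted p = 0.113, 3.75% called). The ratio was called in 0 of the 10 pairs. Of all genes, it was called in 0.584, 0.63, 1.37 and 0.426% for d3 against d6, i10, i12 and i7, in 0.0185, 0.167 and 0.398% for d6 against i10, i12 and i7, in 0.0278% for i12 against i10, and in 0.195 and 0.315% for i7 against i10 and i12. The differences of the ratio of Rbm25 ran from -0.22 to 0.18, with 1 unadjusted p under 0.05. The 3 other pairs that involved the i7 line had unadjusted p-values under 0.05 for summed counts, the i7 line being the lower in each, and were not called.

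Ordered by summed level, the 12 groups ran from d3 parental (288.1 ± 5.3 CPM, SD, n = 2) through d6 parental, d6 clone 16, d3 clone 12, i12 parental, d3 clone 21, i10 parental, i10 clone 18, i7 clone 12 and i7 clone 7 to i7 parental (201.8 ± 10.1 CPM) and i12 clone 10 (187.3 ± 19.8 CPM). Of the 11 neighbouring pairs in this order, 8 overlapped in their libraries. The 6 i7 libraries, from parental line and clones alike, lay between 194.6 and 239.9 CPM with a median of 215.1 CPM. The 16 libraries outside i7 and i12 clone 10 lay between 238.4 and 291.9 CPM. The 129S1 shares of the i7 libraries were 40.8 to 44.7%, unlike in i12 clone 10. Their 129S1 values lay between 83.8 and 98.0 CPM, against 94.0 to 113.8 CPM in the 16 libraries. Their CAST values lay between 109.1 and 141.9 CPM, against 140.2 to 178.3 CPM. Both alleles thus tended to be lower in i7, with ranges that overlapped.

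No gene flanking Rbm25 was called for its allelic ratio, and none that could be tested outside Rbm25 came near its change. The nearest testable gene before it is Zfyve1, which encodes a zinc finger protein of endoplasmic reticulum and Golgi membranes and ends 34014 bases before Rbm25. Zfyve1 had 129S1 shares of 61.3 and 59.5% in the i12 parental replicates and 49.7 and 52.4% in clone 10. That was a log2 ratio change of -0.57 with an unadjusted p of 0.0214 and an adjusted p of 0.859 in edgeR, and the 129S1 shares in the other groups ranged from 47.6 to 64.5%. Dcaf4, a substrate receptor of cullin ubiquitin ligases that lies 89316 bases before Rbm25, changed by -0.26, and Numb, the Notch pathway inhibitor 110911 bases after it, by 0.17 (edgeR adjusted p = 1.0 for each).

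Of 55 annotated genes within 1 Mb of Rbm25, 19 could be tested for the allelic ratio and 28 for summed counts. None was called for either in i12 clone 10 by edgeR's quasi-likelihood test, where 0.00926% of all genes were called for the ratio and 0.0% for summed counts, and DESeq2 called 0 for summed counts. Unadjusted p-values under 0.05 numbered 3 for the ratio, where 5.28% of all genes had one, and 0 for summed counts. Without Gm29361, the 18 ratio changes lay between -0.57 and 0.60 with a median of -0.08, against a median of -0.00061 over all tested genes. Of the 18 genes, 2 lay before Rbm25 and 16 after it, so the upstream side was thinly covered. Within 5 Mb, 87 genes were tested for the ratio and 0 were called, with 6 unadjusted p-values under 0.05.

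Gm29361, named here because it overlaps Rbm25, is an antisense transcript on the minus strand of chromosome 12 between 83631834 and 83633833. It followed the 129S1 loss at very low depth. Its 129S1 counts were 5 and 6 in the i12 parental replicates and 0 and 0 in clone 10, and its CAST counts were 10 and 12 in the parental replicates and 22 and 16 in the clone. The pooled 129S1 share was thus 33.3% (95% Wilson interval 19.8 to 50.4%) in the parental line and 0 of 38 counts in the clone (Wilson upper limit 9.18%). Taken as fewer than 3 counts of 38, a count of 0 allows a share of up to 7.89%. In the other groups the pooled share was 26.5 to 57.4%. Its ratio test gave an unadjusted p of 0.00093 and an adjusted p of 0.529 in edgeR. Whether the counting used strand is not given in the sources used here, so reads of Rbm25 and of its antisense partner cannot be told apart over this stretch.

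**Figure D4:**
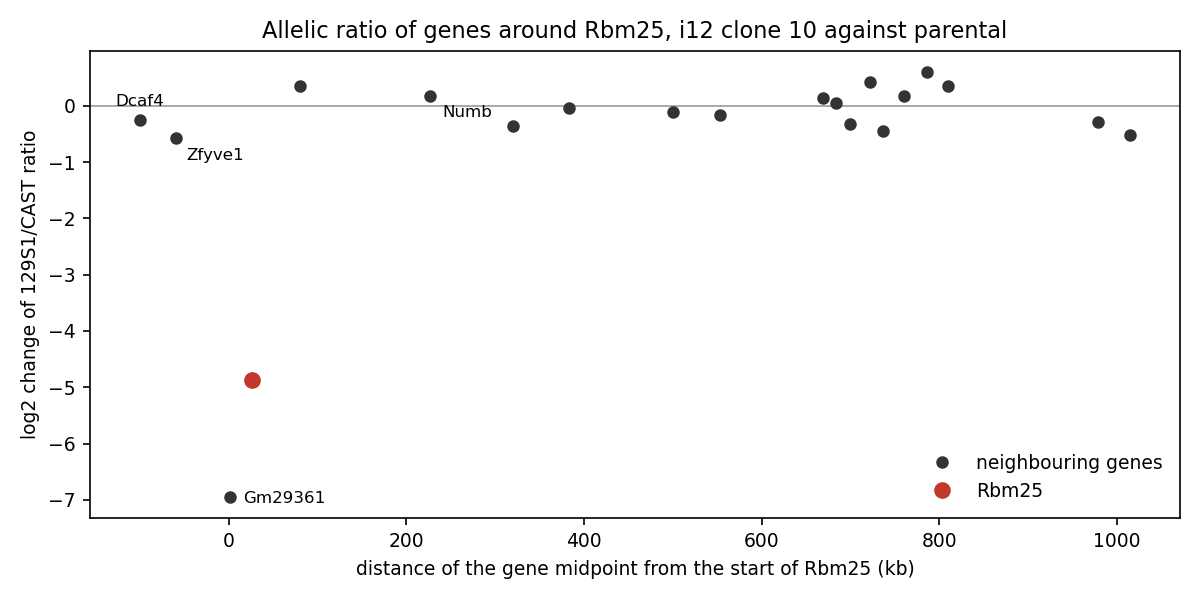
Log2 change of the 129S1 to CAST ratio in i12 clone 10 against its parental line (y axis) for the 19 testable genes within 1 Mb of Rbm25 (black) and for Rbm25 (red), by distance of the gene's midpoint from the start of Rbm25 in kb (x axis). Rbm25 is at -4.87 and the overlapping Gm29361, with 0 counts from 129S1 in the clone, is lower still by a fitted value that is no bound, whereas the 18 others lie between -0.57 and 0.60.

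Along chromosome 12 as a whole the median ratio hardly differed between clone and parental line. Over 374 informative genes the median log2 change of the ratio was -0.0075 in clone replicate 1 and 0.0030 in replicate 2. In 12 bins of 10 Mb the median lay between -0.05 and 0.08, and in the bin from 80 to 90 Mb that holds Rbm25 it was -0.0080 ± 0.078 (SD, n = 2) over 72 genes. Leaving Rbm25 aside, 0 of the genes of the chromosome tested for the ratio (401 with Rbm25) were called in edgeR. An unadjusted p under 0.05 was found for 19 of the 401. Over all 10795 genes tested for the ratio, 0.00926% were called and 5.28% had an unadjusted p under 0.05.

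No gene of the 5 lists of splicing, apoptosis and decay factors was called in i12 clone 10. Of 101 listed genes, 97 were tested for summed counts, 0 were called by edgeR's quasi-likelihood test or by DESeq2, and 1 had an unadjusted p under 0.05, where 1.31% of all genes did (0.0% were called). Replicate spread limited this comparison, as the SEs below show on the log2 scale. These SEs come from fits that did not pair libraries by replicate number. In i12 clone 10, deviations of same-numbered libraries correlated at r = 0.53 over genes for summed counts.

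Among the 21 tested U1 snRNP genes and U1-associated factors, 0 were called in either direction and the median log2 change was 0.05, against 0.00029 over all 16253 tested genes. Luc7l3, which encodes the LUC7-like partner of RBM25, measured 12.1 and 30.9 CPM in the parental replicates and 18.9 and 22.4 CPM in clone 10, a change of -0.06 ± 0.44 (SE). Its relatives, encoding homologues of a yeast U1 protein, changed by -0.03 ± 0.23 (Luc7l) and -0.12 ± 0.16 (Luc7l2). The largest changes in the list were 0.50 ± 0.56 for Prpf40b, encoding a U1-associated protein, 0.24 ± 0.26 for Snrpb, encoding the Sm core proteins B and B′, and -0.15 ± 0.28 for the RNA helicase gene Ddx17. Prpf40b measured 3.57 and 5.36 CPM in the parental replicates and 5.39 and 7.31 CPM in clone 10, from 15 to 37 counts per library.

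The list of exon junction and SR-related splicing regulators had 22 tested genes, 0 called and a median of 0.07. Srrm1, the coactivator partner of RBM25, measured 205.4 and 236.6 CPM in the parental line and 196.1 and 232.3 CPM in clone 10, a change of -0.05 ± 0.21 (SE). Srsf10, a splicing repressor when dephosphorylated, changed by 0.28 ± 0.26, Son, a large nuclear speckle protein, by 0.26 ± 0.32, and Srsf6 by 0.23 ± 0.29, each with overlapping groups. Among 28 tested RBM genes, 0 were called and the median was 0.10, against 0.00029 over all tested genes. Rbm4b (0.47 ± 0.31, SE), Rbm27 (0.42 ± 0.30) and Rbm45 (0.39 ± 0.35) had the largest values, again with overlapping groups.

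Bcl2l1, the Bcl-x gene, measured 16.4 and 8.67 CPM in the parental replicates and 14.1 and 15.6 CPM in clone 10. The difference, 0.24 ± 0.37 (log2, SE), was within the spread, and since the table gives 1 value per gene and allele it holds nothing on the long and short isoforms. Of 16 tested apoptosis genes, 0 were called and the median was 0.01. Bcl2l11 (BIM, -0.46 ± 0.52, SE) and Pmaip1 (NOXA, -0.63 ± 0.83, SE) had the lowest values, with wide errors and overlapping groups. Pmaip1 differed between the parental replicates themselves, at 16.4 and 98.2 CPM.

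Nonsense-mediated decay removes transcripts with premature stop codons, which altered splicing can create. Of its 10 listed factors, all tested, 0 were called and the median was 0.02. Upf3b, which bridges the exon junction complex and the decay machinery, gave the 1 unadjusted p under 0.05 of all 5 lists, with counts of 5 and 6 in the parental replicates and 20 and 14 in clone 10. Its log2 change was 1.18 ± 0.46 (SE), with an unadjusted p of 0.0204 in edgeR's quasi-likelihood test. The adjusted p was 1.0, so this difference at few counts did not pass. Smg8 changed by 0.21 ± 0.28 (SE), with overlapping groups. Of the listed genes, 3 matched ones (Rbm24, Bcl2 and Bik) had too few counts to test and 1 symbol was not matched.

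**Figure D5:**
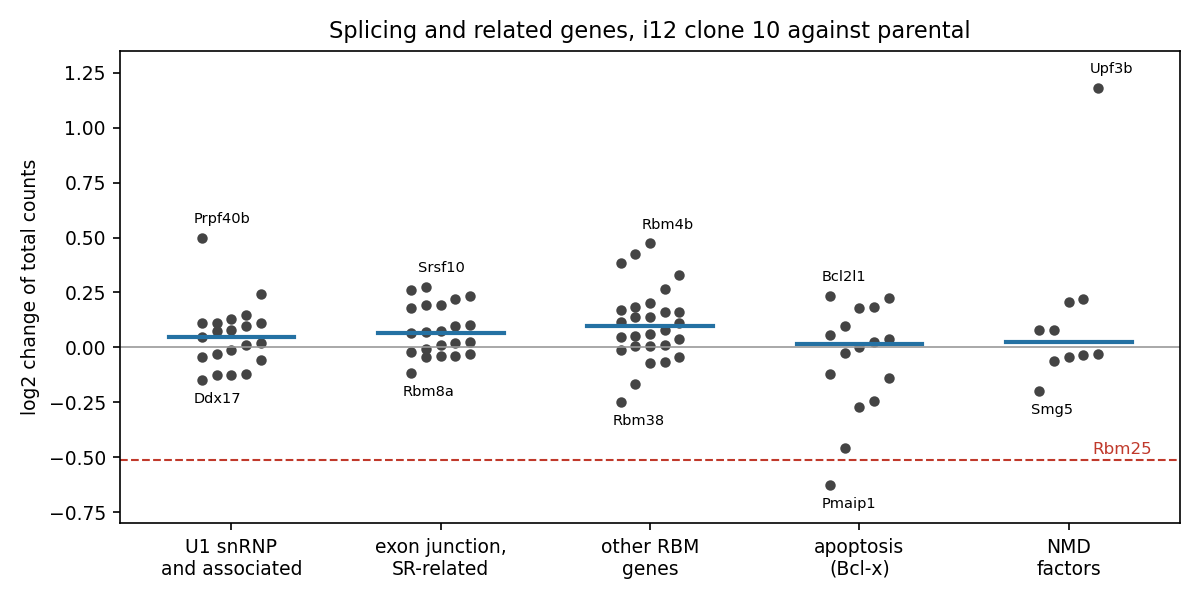
Log2 change of summed counts in i12 clone 10 against its parental line (y axis) for the tested genes of 5 lists (x axis), with 1 point per gene, a blue line at each list's median and the labelled genes at each list's extremes. The medians lie between 0.01 and 0.10, none of the 97 genes was called, and the dashed line marks Rbm25 at -0.51.

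Likeness to Rbm25 across libraries was described by Pearson's r over the 24 libraries, which share their lines and depth in groups. For log2 CPM of summed counts the 5 genes most like Rbm25 were Fgf13 (r = 0.80, with a mean of 5.08 counts), Mfn1 (0.76), Shisa8 (0.76), Polr2k (0.75) and Ppif (0.74). Mfn1, a mitochondrial fusion GTPase, kept r = 0.82 over the 22 libraries without i12 clone 10, and Polr2k, a subunit shared by the nuclear RNA polymerases, had 0.87. For the log2 allelic ratio they were Gm29361 (0.86), Plxnb1 (0.84), Zbtb11os1 (0.78), Mfng (0.73) and Ankrd13c (0.72). Without i12 clone 10 these became 0.0029, -0.42, 0.32, 0.13 and 0.12, so the likeness of the ratio rested on the 2 libraries of that clone. Plxnb1, a semaphorin receptor gene on chromosome 9, had 36 and 39 counts from 129S1 and 59 and 40 from CAST in the parental replicates, and 80 and 44 against 259 and 144 in clone 10. Its ratio change of -1.31 was not called (adjusted p = 0.0848 in edgeR).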

How the data were processed

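RNA counts of 24 polyA RNA libraries, 2 replicates in each of 12 groups, were analysed. The authors deposited raw counts per gene and allele (48 columns). Libraries were made with a stranded mRNA kit and read as single-end 75-bp reads, per the labels' protocols. STAR, SAMtools and mm10 are named in the submitters' processing notes. The counter, its strand setting, the annotation and the handling of reads without a strain difference are not given in the sources used here. Genes with few differences between the strains may therefore have few counts. Of 48985 gene IDs, 48838 matched GENCODE M21 without their version, and the 147 unmatched held 0.0148% of counts. Alleles were summed and tested with edgeR 4.0.16 (TMM, filterByExpr, quasi-likelihood test, 16253 genes, all 24 libraries, Benjamini-Hochberg adjustment, threshold 0.05). Single alleles used the effective library sizes of the sums (13811 genes for 129S1, 13955 for CAST). The allelic ratio was tested with a coefficient per library (10795 genes with at least 10 counts per allele on average). The code was tested on simulated data. DESeq2 1.42.0, other normalizations and filters, left-out libraries and a replicate block were alternatives. Rbm25 passed every filter. Named genes were the 2 nearest testable genes on each side of Rbm25, the 3 listed genes per list with the largest change in i12 clone 10, Bcl2l1, Luc7l, Luc7l2, Luc7l3 and Srrm1, and the 5 genes most like Rbm25 (0.5 added to each count for the ratio); some genes that the rule names are not reported here. The gene and the lists were chosen with earlier results of these data known.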

Additional observations from a re-analysis of the deposited data

How the results depend on the processing

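In i12 clone 10 the values of Rbm25 moved by less than the replicate spread under other normalizations (129S1 log2 change -4.65 to -4.69, CAST 0.20 to 0.22, summed -0.51 to -0.54). The ranges with each library left out were 129S1 -4.70 to -4.61, CAST 0.11 to 0.33, summed -0.62 to -0.41, and CAST gain 11.7 to 38.0% of the loss. With 2 libraries a group, these ranges restate the difference between replicates and are no separate check. In the other 6 clones no alternative brought a call. Leaving out single libraries turned the sign of 8 uncalled changes: summed counts in d3 clone 21 (-0.24 to 0.0014) and i7 clone 7 (-0.042 to 0.13), 129S1 counts in d3 clone 21 (-0.23 to 0.027), CAST counts in d6 clone 16 (-0.020 to 0.048), i7 clone 7 (-0.096 to 0.11) and i10 clone 18 (-0.23 to 0.017), and the ratio in d3 clone 12 (-0.074 to 0.090) and i10 clone 18 (-0.062 to 0.16). The parental pairs with a call for summed Rbm25 counts numbered 0 to 1 with a library left out, 0 without the filter on low counts and 4 with a replicate block, an alternative chosen after seeing the data. Of the list genes, 0 to 9 were called in d3 clone 12 and 0 to 8 in d3 clone 21, the highest without d3 parental replicate 1, and 1 in i7 clone 12 with the replicate block. The cause was not tested. The block changed no other call. Replicate numbers pair libraries by number only: deviations of same-numbered libraries correlated at r = 0.29 to 0.57 over genes for summed counts and 0.11 to 0.35 for the ratio. Neighbours gave 0 calls under every alternative run. With 2 libraries a group and 3829089 to 6920899 counts in the i12 libraries, modest changes of low genes were not detectable.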
